A study of Homo sapiens with 4 samples.

Results

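The RNAs described here are 8 long noncoding RNAs, MALAT1, NEAT1, NORAD, SNHG1, GAS5, PVT1, KCNQ1OT1 and MIR17HG, and the question is where the RNA-binding protein IGF2BP2 was found on them. They were chosen by name. A peak was taken as theirs when it carried their Ensembl gene identifier on the gene's own strand, called a sense peak here, and its position was checked in GRCh38. They are 8 of 20428 gene identifiers with a sense peak in either library. The data come from untreated Jurkat cells, 1 human T-cell acute lymphoblastic leukemia line, in which RNA was crosslinked to protein with UV light, precipitated with an antibody to IGF2BP2 and sequenced (iRIP-seq). The experiment had 2 IGF2BP2 libraries, replicates 1 and 2, and 2 input libraries. The values below rest on the peak lists of the 2 IGF2BP2 libraries, since the inputs were not analysed here. Nothing in the labels says that the replicates came from separate cultures, so the spread between them may be technical.

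The list of replicate 1 held 145715 peaks, 74237 of them sense, and that of replicate 2 held 137934, with 77288 sense peaks. Peaks were built from bins of 50 nt, and every start was a multiple of 50. Overlapping peaks that are both 1 bin wide therefore always have identical positions. The height of a peak 1 bin wide is a whole number of tags. For wider peaks the height times the number of bins was whole (within 0.01 tags), as for a mean over the bins, so heights of wide and narrow peaks are not the same quantity. No peak lower than 4 tags was listed for replicate 1, or lower than 5 tags for replicate 2. Sense peaks of exactly this lowest height made up 66.8% and 54.4%. Sequencing depth is unknown from the lists, and heights were therefore left unadjusted. The methods state that peaks overlapping an input peak were removed. If so, a place without a listed peak may have had no peak or a removed one, and these cannot be told apart in the lists. For the same reason a number of peaks is not a measure of how abundant an RNA is, and the abundance of the 8 RNAs was not measured here. Among 8 T cell genes, 6 had a sense peak in both libraries, and for CD3D, CD3E and LCK it reached 10 tags or more each time. CD2 had sense peaks in replicate 1 alone and CD28 in replicate 2 alone. Of all identifiers with a sense peak in either library, 59.5% had one in both and 3.96% reached 10 tags in both. The T cell counts are a description and were not tested. The strand of CD3E was not checked. Among 10 genes of B cells, myeloid cells, liver and epithelium, 5 of which could not be assigned an identifier, CSF1R and KRT8 had a peak in both, with highest peaks of 4 to 6 tags.

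IGF2BP2 belongs to a family of cytoplasmic RNA-binding proteins that bind many mRNAs, read N6-methyladenosine (m6A) and stabilise the RNA they bind. Long noncoding RNAs work as RNA, without a protein product. MALAT1 and NEAT1 are nuclear RNAs of neighbouring genes, and NEAT1 is the scaffold of the nuclear bodies called paraspeckles. NORAD is a cytoplasmic RNA that binds Pumilio proteins. SNHG1 and GAS5 are spliced RNAs whose introns carry small nucleolar RNAs (snoRNAs). KCNQ1OT1 is an imprinted RNA read against the direction of KCNQ1. MIR17HG is the precursor of the miR-17 cluster of microRNAs, and PVT1 is a long, multiply spliced RNA encoded next to MYC.

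IGF2BP2 peaks were present on all 8 RNAs in replicate 1 and on 7 of them in replicate 2. MALAT1 was the RNA without a sense peak in replicate 2. Of all 20428 identifiers with a sense peak in either library, 59.5% had one in both. The 8 RNAs held 54 sense peaks in replicate 1 and 65 in replicate 2, a mean of 59.5 ± 7.78 (SD, n = 2). These were 0.0727% (95% Wilson interval 0.0558% to 0.0949%) and 0.0841% (0.0660% to 0.107%) of all sense peaks. The intervals cover counting error only, and PCR copies of a molecule are not independent of each other. NEAT1 alone held 44.4% and 50.8% of the peaks of the 8 RNAs.

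Most of the peaks lay in noncoding exons, a class of the authors' annotation for exon sequence without a reading frame. The class also took in peaks on snoRNAs that lie in introns of SNHG1 and GAS5. In replicate 1, 45 peaks lay in noncoding exons and 9 in introns, and in replicate 2 the numbers were 56 and 9. The noncoding exon share was 83.3% (95% Wilson interval 71.3% to 91.0%) and 86.2% (75.7% to 92.5%), with a mean of 84.7% ± 1.99 (SD, n = 2). Without NEAT1, which was left out after its numbers had been seen, it was 70.0% and 71.9%. The same split over all genes, where introns are longer and mRNA exons fall in other classes, gave 6.05% and 7.07%. Of the 8 RNAs, only GAS5, SNHG1, PVT1 and MIR17HG have introns in their intervals. The others, NEAT1, MALAT1, NORAD and KCNQ1OT1, had 24, 7, 1 and 4 of the noncoding exon peaks in replicate 1 and 33, 0, 4 and 8 in replicate 2. The share thus largely follows from which RNAs were chosen, and it cannot be measured against that of all genes. Fisher's exact test of the split over the 8 RNAs (two-sided p = 0.798, adjusted p = 1 over 8 tests) compares 2 libraries and not conditions, and it takes peaks of the same RNA as independent, which they are not. Among single RNAs only GAS5, with 4 and 0 peaks against 5 and 2, had counts from which this exact test could give a p below 1, and the shares of the 8 RNAs are therefore given as a description.

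The peaks had about the height of sense peaks in general. Their median, 4 tags in the first library and 5 in the second, equalled the lowest height listed and the median of all sense peaks. Of the peaks on the 8 RNAs, 61.1% in replicate 1 and 52.3% in replicate 2 had the lowest height, beside the 66.8% and 54.4% of all sense peaks. Peaks of 10 tags or more numbered 0 in replicate 1. In replicate 2 there were 3, with 2 on NEAT1 and 1 on GAS5. Over all genes such peaks made up 2.73% and 8.75% of the sense peaks, and 3.81% and 10.9% of the noncoding exon peaks. Thus 0 of the 8 RNAs reached 10 tags in both libraries, and with 3.96% of all identifiers doing so, a count of 0 among 8 does not set them apart.

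**Figure D1:**
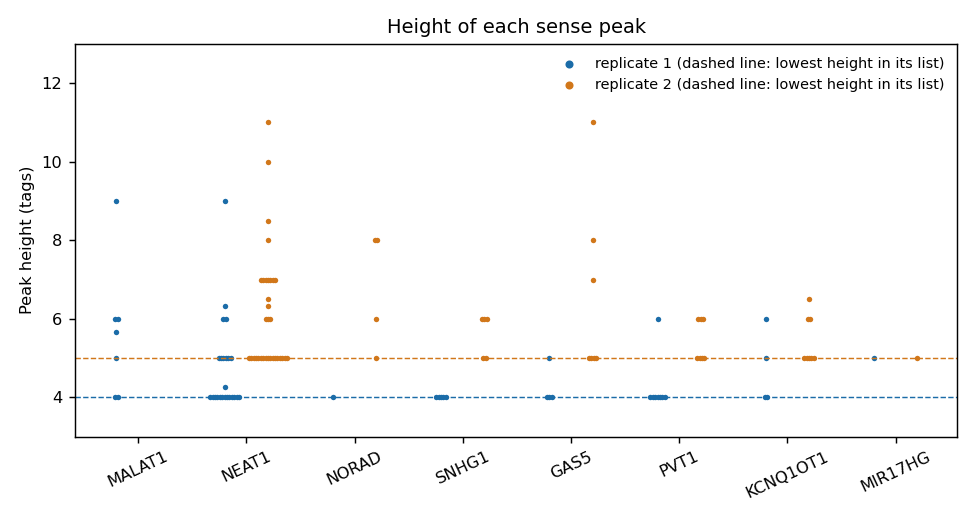
Height in tags (y axis) of every sense peak on the 8 RNAs (x axis), with 1 point per peak, replicate 1 in blue and replicate 2 in orange. The dashed lines mark the lowest height in each list, 4 and 5 tags, and the highest points are 9 tags in replicate 1 (MALAT1 and NEAT1) and 11 tags in replicate 2 (NEAT1 and GAS5).

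NEAT1 (ENSG00000245532.9, plus strand of chromosome 11, 65422798 to 65445540 in RefSeq) had the most noncoding exon peaks of any gene identifier in either library. It had 24 sense peaks in replicate 1 and 33 in replicate 2 (mean 28.5 ± 6.36, SD, n = 2), all in noncoding exons. Of the 2375 and 2406 identifiers with such a peak, 0 had more, and the median identifier had 1. In replicate 1 the NEAT1 heights ran from 4 to 9 tags with a median of 4, and in replicate 2 from 5 to 11 tags with a median of 5. By the number of all its sense peaks, which counts mRNA exons and introns too, NEAT1 stood at percentile 98.0 and 98.6 of the identifiers with a sense peak in that library.

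The NEAT1 peaks were spread over the whole RNA, most densely near its 5′ end. The transcript region was cut in 5 equal parts of 4549 nt. The first part, in which the short NEAT1 isoform lies, had 11 of 24 peaks in replicate 1 and 13 of 33 in replicate 2. It also held the highest peak of each library. In replicate 1 this was at 65424000 to 65424050 (9 tags, 1202 nt from the 5′ end), and in replicate 2 at 65424650 to 65424700 (11 tags, 1852 nt from it). Neither had an overlapping partner in the other library. The following 4 parts had 5, 3, 3 and 2 peaks in replicate 1 and 5, 7, 2 and 6 in replicate 2. Both libraries had a long stretch without a peak, 5850 nt in replicate 1 and 3700 nt in replicate 2, and between 7352 and 11052 nt from the 5′ end neither had one.

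Of the 24 NEAT1 peaks of replicate 1, 6 were overlapped by at least 1 bp by a peak of replicate 2. Near the 5′ end, the replicate 1 peak at 65423350 to 65423500 (6.33 tags) met one of 7 tags at 65423300 to 65423450. The peak at 65424350 to 65424400 had 5 tags, and its wider partner in replicate 2 had 8.5 tags. Close to the 3′ end, 2 neighbouring peaks, each 1 bin wide, lay in the same bins in both libraries. The one at 65444200 to 65444250 had 6 tags in replicate 1 and 7 in replicate 2, and the one at 65444300 to 65444350 had 5 and 10 tags. The second lies 107 nt before the hairpin of MIR612, a microRNA within NEAT1, which no peak overlapped.

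By numbers of sense peaks and highest peaks in both libraries, 3 protein-coding genes were most like NEAT1. The likeness was the Euclidean distance over these 4 values on the log2(1 + value) scale, over 2 libraries. MLXIP, a transcription factor gene, was at distance 0.176 with 24 and 30 peaks and highest peaks of 9 and 12 tags. MAP1A, for a microtubule-associated protein, was at 0.267 with 22 and 30 peaks. MYH10, for a nonmuscle myosin heavy chain, was at 0.284 with 22 and 28 peaks. The peaks of MLXIP, MAP1A and MYH10 lay in CDS in 10, 20 and 12 cases in replicate 1 and in 10, 27 and 12 cases in replicate 2. These symbols were assigned by position and strand.

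MALAT1 (ENSG00000251562.8, plus strand of chromosome 11, 65497738 to 65506516) had 7 sense peaks in replicate 1 and 0 in replicate 2. The 7 peaks lay in noncoding exon sequence with heights from 4 to 9 tags and a median of 5.67. Of these, 5 were above the lowest height listed. The highest, with 9 tags, was at 65499300 to 65499350, and it tied with NEAT1 for the highest peak of the 8 RNAs in that library. The peaks ran from 1562 to 8262 nt from the RefSeq 5′ end. The one nearest to the 3′ end stopped 66 nt short of mascRNA, the tRNA-like small RNA cut from the MALAT1 end. In replicate 2 the only peak with the MALAT1 identifier was antisense, on the minus strand at 65500650 to 65500700 with 5 tags.

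Other identifiers also had peaks in replicate 1 alone. Among all 2953 identifiers with at least 7 sense peaks of any class in replicate 1, 16 had none in replicate 2. Of 17 identifiers with at least 7 noncoding exon peaks in replicate 1, 5.88% had no sense peak in replicate 2, which is MALAT1 itself, and the number 7 was taken from MALAT1 after its values had been seen, so this share is a description. In the other direction, 0 of 36 identifiers with at least 7 such peaks in replicate 2 had no sense peak in replicate 1. NEAT1, the neighbouring gene, had 33 peaks in replicate 2, and within 20000 nt of MALAT1 on its strand the lists had 2 other peaks in replicate 1 and 1 in replicate 2. Peaks that were not called on MALAT1 in replicate 2 and peaks that were removed because of the input cannot be told apart.

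NORAD (ENSG00000260032.2, minus strand of chromosome 20, 36045618 to 36050960) had 1 sense peak in replicate 1 and 4 in replicate 2, all in its noncoding exon. The peak of replicate 1, at 36050150 to 36050250, had 4 tags. In replicate 2 the heights were 6, 8, 8 and 5 tags, at 36048600 to 36048650, 36050300 to 36050350, 36050700 to 36050750 and 36050800 to 36050850. No peak of one library overlapped a peak of the other. The peaks lay towards the 5′ end, with the peak of replicate 1 and 3 of the 4 peaks of replicate 2 within 1000 nt of it, in an RNA of 5343 nt. Each library also had 1 antisense peak on NORAD.

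KCNQ1OT1 (ENSG00000269821.1, minus strand of chromosome 11, 2608328 to 2699994) had 4 peaks in replicate 1 and 8 in replicate 2, all annotated as noncoding exon. The heights were 4, 5, 4 and 6 tags in replicate 1 and 5 to 6.5 tags with a median of 5 in replicate 2. They lay in the 5′ part of this RNA of 91667 nt, within 1500 nt of the 5′ end in 2 of 4 cases in replicate 1 and 5 of 8 in replicate 2. The farthest peak was 28794 nt from the 5′ end in replicate 1 and 30294 nt in replicate 2, so the last 3 of 5 equal parts of the RNA had none. One position was shared, 2699800 to 2699850, 144 nt from the 5′ end, with 6 tags in each library.

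**Figure D2:**
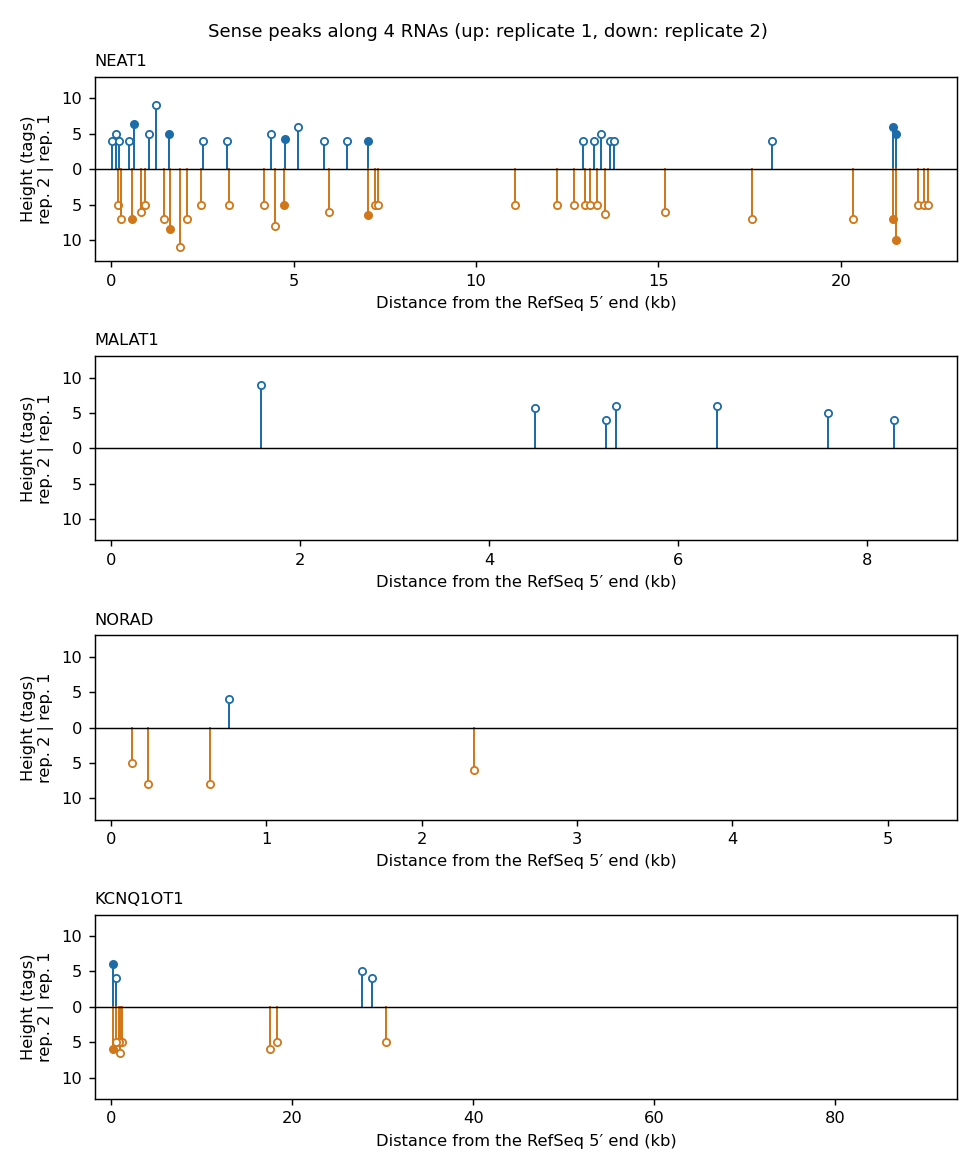
Sense peaks along NEAT1, MALAT1, NORAD and KCNQ1OT1, with the distance from the RefSeq 5′ end in kb (x axis) and the height in tags (y axis), replicate 1 upwards in blue and replicate 2 downwards in orange. Filled circles are peaks overlapped by a peak of the other library, of which NEAT1 has 6 in each library, KCNQ1OT1 has 1 and MALAT1 and NORAD have 0.

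SNHG1 and GAS5 host snoRNAs in their introns, and both had overlapping peaks, 1 bin wide, in the 2 libraries. SNHG1 (ENSG00000255717.7, minus strand of chromosome 11, 62851978 to 62855885) had 5 peaks in each library, all assigned to noncoding exons. All 5 peaks of replicate 1 had 4 tags, the lowest height of that list, and in replicate 2 the heights were 6, 5, 5, 6 and 6 tags. The shared positions were 62853550 to 62853600, with 4 tags in replicate 1 and 5 in replicate 2, and 62853800 to 62853850, with 4 and 6 tags. Both lie between snoRNAs, 62 nt from SNORD30 and 53 nt from SNORD29.

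GAS5 (ENSG00000234741.8, minus strand of chromosome 1, 173863901 to 173869045) had 4 peaks in replicate 1 and 7 in replicate 2. The heights were 4, 4, 4 and 5 tags in replicate 1. In replicate 2 they were 5, 5, 5, 5, 8, 7 and 11 tags, the last at 173866950 to 173867000. The shared positions were 173866150 to 173866200, with 4 and 5 tags, and 173866500 to 173866550, with 4 and 8 tags. Of the peaks of replicate 2, 5 lay in noncoding exons and 2, with 5 tags each, in introns beyond the 3′ end of the RefSeq interval.

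Except on SNHG1 in replicate 1, most of these peaks did not lie on the snoRNAs themselves. RefSeq places 9 snoRNAs within SNHG1 and 11 within GAS5, which cover 19.01% and 15.6% of the 2 gene intervals. In SNHG1, 3 of 5 peaks of replicate 1 overlapped a snoRNA (SNORD22, SNORD26 and SNORD25), and 1 of 5 in replicate 2 did (SNORD22). In GAS5, 1 of 4 peaks of replicate 1 overlapped a snoRNA (SNORD74) and 0 of 7 in replicate 2. None of the 4 positions shared by the libraries on SNHG1 or GAS5 overlapped one, although that at 173866150 to 173866200 ends 4 nt from SNORA103. The peaks on snoRNAs, too, were noncoding exon peaks in the authors' annotation.

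MIR17HG (ENSG00000215417.13, plus strand of chromosome 13, 91347687 to 91354577) had 1 sense peak in each library, and they lay in different places. In replicate 1 it was an intron peak at 91348900 to 91348950 with 5 tags. In replicate 2 it was a noncoding exon peak at 91347850 to 91347950 with 5 tags, 163 nt from the 5′ end. Neither lay on a microRNA hairpin. The nearest hairpin, MIR17, began 1654 nt after the peak of replicate 1 and 2654 nt after that of replicate 2. For orientation, the mature strands of the cluster are given here from RefSeq (GRCh38.p14), 5′ to 3′, with the seed, bases 2 to 8, in capitals. The hairpins cover 6.86% of the MIR17HG interval. With 1 sense peak in each library most of the transcript carried no peak, so the lack of one on the hairpins does not set them apart.
hsa-miR-17-5p: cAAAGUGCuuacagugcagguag
hsa-miR-20a-5p: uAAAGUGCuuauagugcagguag
hsa-miR-18a-5p: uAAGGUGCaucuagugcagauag
hsa-miR-19a-3p: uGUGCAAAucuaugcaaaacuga
hsa-miR-19b-3p: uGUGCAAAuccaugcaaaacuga
hsa-miR-92a-3p: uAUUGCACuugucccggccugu
The seed AAAGUGC is shared by miR-17-5p and miR-20a-5p, and GUGCAAA by miR-19a-3p and miR-19b-3p. The 6 hairpins lie between 91350605 and 91351391.

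A further pair of peaks lay at the very start of MIR17HG. The authors' annotation called it intergenic and gave it no gene, so it is not among the sense peaks, but RefSeq starts MIR17HG at 91347687. On the gene's strand, replicate 1 had a peak at 91347700 to 91347750 with 7 tags and replicate 2 one at 91347700 to 91347800 with 6.5 tags, 13 nt from the RefSeq 5′ end. They overlap each other, and each is higher than the sense peak of MIR17HG in its library. The RefSeq promoter window of MIR17HG, chr13:91347437-91347736 on the plus strand of GRCh38.p14, ends within them and is shown because, of the 6 windows of MALAT1, NORAD, SNHG1, GAS5 and MIR17HG that were searched, it alone held a peak on the gene's strand. Its last 37 bases, from 91347700, lie under both peaks and are in capitals.
MIR17HG promoter window: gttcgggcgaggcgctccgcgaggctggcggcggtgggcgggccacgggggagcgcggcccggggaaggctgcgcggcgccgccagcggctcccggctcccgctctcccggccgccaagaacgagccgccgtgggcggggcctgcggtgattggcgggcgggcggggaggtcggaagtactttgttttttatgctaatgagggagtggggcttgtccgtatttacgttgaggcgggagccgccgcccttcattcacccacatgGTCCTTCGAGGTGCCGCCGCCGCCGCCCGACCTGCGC
Of this window of 300 bases, 73% are G or C, more than in 86.4% of the 35116 promoter windows of the table, whose median is 58.7%. Most of the window lies before the RefSeq start, so this describes the DNA there and not the RNA under the peaks.

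**Figure D3:**
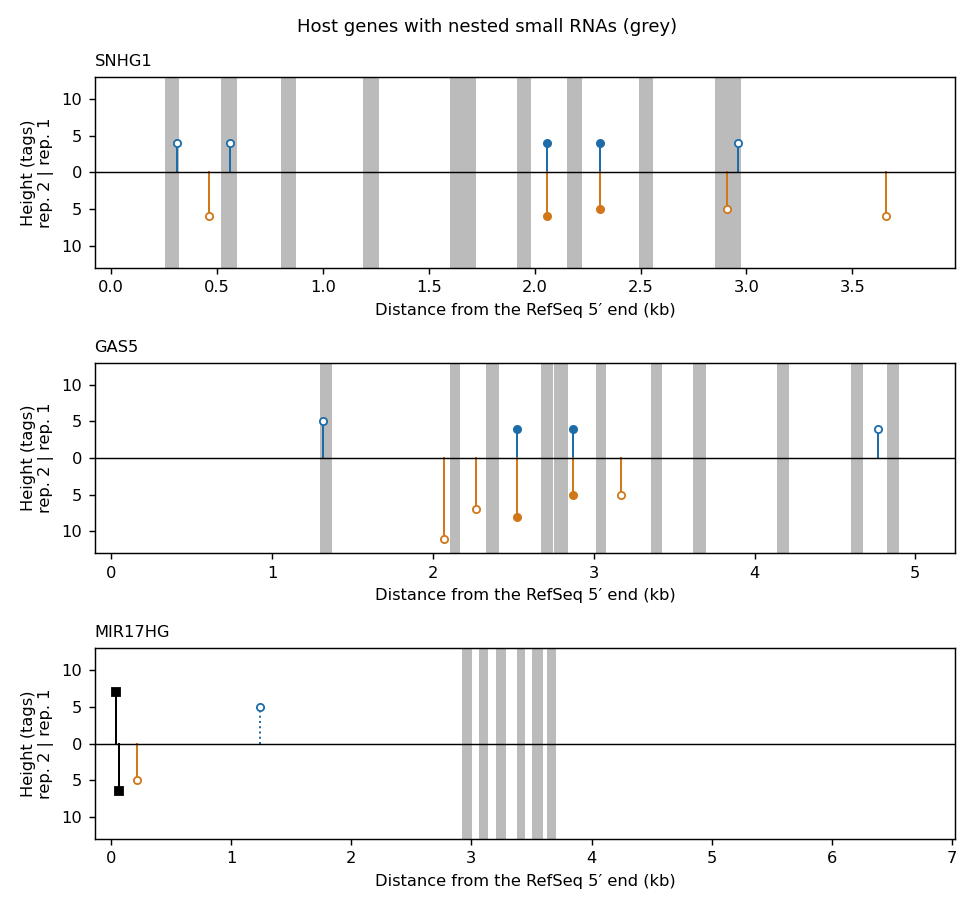
Peaks along SNHG1, GAS5 and MIR17HG, with the distance from the RefSeq 5′ end in kb (x axis) and the height in tags (y axis), replicate 1 upwards and replicate 2 downwards. Grey bands are nested snoRNAs (SNHG1, GAS5) or microRNA hairpins (MIR17HG), filled circles are peaks overlapped in the other library, the dotted line is an intron peak and black squares are the MIR17HG peaks without a gene identifier, of 7 and 6.5 tags. The 2 intron peaks of GAS5 beyond its RefSeq 3′ end are not drawn.

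PVT1 (ENSG00000249859.12, plus strand of chromosome 8, 127794524 to 128101256) differed from the other RNAs in that all of its 8 peaks in replicate 1 and 7 in replicate 2 lay in introns. Of the 8 peaks, 7 had 4 tags and 1 had 6 tags. Of the 7 peaks, 4 had 5 tags and 3 had 6 tags. They were scattered from 50726 to 381026 nt from the RefSeq 5′ end in replicate 1 and from 39326 to 328076 nt in replicate 2, with 4 and 1 of them beyond the RefSeq 3′ end, in sequence that the authors' annotation gives to the gene. None was overlapped in the other library. PVT1 also had 6 and 5 antisense peaks, 75.0 and 71.4 for every 100 sense peaks. Over all genes there were 56.5 and 48.0 antisense peaks for every 100 intron peaks. The other 7 RNAs had 3 antisense peaks in replicate 1 (2 on NEAT1 and 1 on NORAD) and 2 in replicate 2 (1 on MALAT1 and 1 on NORAD). Beyond the 8 RNAs, a lack of noncoding exon peaks was not particular to PVT1. Among the other long noncoding RNAs looked up below, LINC-PINT had 10 and 7 sense peaks and FTX 7 and 8, with 0 in noncoding exons. Of the 8 in that list with an identifier, 2 had a noncoding exon peak in both libraries.

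Per length the order of the RNAs was different from that of the numbers. Counted within the RefSeq interval, introns included, SNHG1 had 1.28 sense peaks per kb in both libraries, and NEAT1 had 1.06 in replicate 1 and 1.45 in replicate 2. These 2 RNAs did not differ beyond the spread between the libraries. By its mean GAS5 followed, with 0.777 and 0.972 peaks per kb, both below the values of NEAT1. NORAD had 0.187 and 0.749 and MALAT1 had 0.797 and 0, and their ranges overlapped. The range of MALAT1 overlapped that of GAS5 too, since in replicate 1 MALAT1 was above GAS5. MIR17HG had 0.145 in both libraries, or 0.290 with the peak at its start that carries no identifier, and both values lie within the range of MALAT1. KCNQ1OT1 had 0.0436 and 0.0873, and PVT1 had the lowest mean, with 0.0130 and 0.0196. The values of KCNQ1OT1 and PVT1 also lie within the range of MALAT1, which with 0 was below both in replicate 2. The intervals of GAS5, SNHG1, PVT1 and MIR17HG contain introns, so the values are not densities on the mature RNA. With 2 libraries no test of these densities was made.

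Between the libraries, 11 of the 54 peaks of replicate 1 on the 8 RNAs, or 20.4% (95% Wilson interval 11.8% to 32.9%), had a same-strand partner in replicate 2 that overlapped them. For noncoding exon peaks it was 11 of 45, or 24.4% (14.2% to 38.7%), against 21.2% of all noncoding exon peaks of replicate 1. For intron peaks it was 0 of 9 (0% to 29.9%), against 7.11% of all intron peaks. With edges read as half-open, both shares of the 8 RNAs have intervals that include the share over all genes. The 11 pairs lay on 4 RNAs, 6 on NEAT1, 2 on SNHG1, 2 on GAS5 and 1 on KCNQ1OT1. Of the pairs, 7 had identical start and end, as overlapping peaks 1 bin wide must have on the shared bins. The length given in the lists is 1 more than end minus start, which counts both edges. Read in that way, peaks in adjacent bins overlap too, but by the edge position alone, since starts and widths are multiples of 50 nt. So counted, 20 of the 45 noncoding exon peaks, or 44.4% (30.9% to 58.8%), had an overlapping or adjacent partner. Over all genes it was 25.6%, a share outside this interval. Within a list no 2 peaks of a strand touched at an edge. The comparison with all genes thus depends on whether peaks in adjacent bins are counted as partners. Of the 45 noncoding exon peaks, 24 lay on NEAT1, and the intervals take peaks as independent. Peaks of 1 RNA share their source, and the difference between these shares was not tested.

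A noncoding exon peak was present in both libraries on 5 of the 7 RNAs that had one in either, namely NEAT1, NORAD, SNHG1, GAS5 and KCNQ1OT1. Over all 3906 identifiers with a noncoding exon peak in either library, 22.4% had one in both. Among identifiers with such a peak in a library the median number was 1, and the shares were not matched for the number of peaks. The difference was not tested. All 8 RNAs were picked by name among well-known transcripts.

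Other RNAs of the same classes were looked up from lists of 43 symbols, assigned to identifiers by position in the RefSeq table. An identifier was found for 24 of them, 5 without a check of the strand. Since sense peaks served to find the identifiers, an RNA without any could not receive one, and the counts below are of RNAs with a peak in at least 1 library. Over all such identifiers, 59.5% had a peak in both. The 19 others are not all without peaks, since 12 of them, SNHG5 among these, had some peak within their interval that could not be assigned. Applied to the 8 RNAs, the assignment gave the right identifier for 7 and none for PVT1. Of 17 further snoRNA host genes, 13 with an identifier, 11 had a sense peak in both libraries and 3 reached 10 tags in each. Over all identifiers, 3.96% reached 10 tags in both. An overlapping pair between the libraries was present on 10 of the 13. The share of all identifiers with such a pair was not computed, so this count is a description. Of 14 other long noncoding RNAs, all 8 with an identifier had a peak in both libraries and 0 reached 10 tags in each. Of 6 microRNA host genes, the 1 with an identifier had a peak in both, and of 6 small structured RNAs, 2 with an identifier, 1 did.

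The 5 highest of these RNAs, ranked by the lower of their 2 highest peaks, were all snoRNA host genes. SNHG17 had 5 peaks in each library with highest peaks of 12 and 20 tags. SNHG15, whose strand was not checked, had 2 peaks in each with 11 and 11 tags. SNHG29 had 10 peaks in each with 10 and 20 tags. SNHG7 had 2 and 3 peaks with 9 and 16 tags, and ZFAS1, an antisense transcript that hosts snoRNAs, had 5 and 3 peaks with 9 and 12 tags. For comparison, the highest peaks of SNHG1 had 4 and 6 tags and those of GAS5 had 5 and 11.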

How the data were processed

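Peaks were analysed from 2 IGF2BP2 iRIP libraries of Jurkat cells. Paired reads of 150 bp were aligned by the authors to GRCh38 (build per the labels) with TopHat 2, and uniquely mapped reads were kept. For peak calling in each library the methods name 500 simulations of each gene, a p-value below 0.05 and the discarding of peaks that overlap a peak of the input. The lists do not show these steps: among peaks of 50 nt each height had 1 p-value per strand whatever the gene, and the lowest p-values were 3.09e-08 and 2.51e-08. The deposited height is a signal in tags, a mean over bins in peaks wider than 50 nt, with no adjustment for depth, and the deposited p-value served only as a filter. The annotation version is not given in the sources used here.

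Each peak took the class that covered most of its length, and only sense classes were counted. Positions are as listed, read as half-open, although the listed lengths count both edges. Overlap required 1 bp on the same strand. Gene intervals, snoRNAs, hairpins and sequences came from RefSeq (GRCh38.p14), and other RNAs were assigned where at least 80% of an identifier's sense peaks lay within 1000 nt of the interval. The RNAs named were all 8, the 5 highest of the lists and the 3 identifiers nearest to the leading RNA. RNAs and lists were chosen with earlier results of these data known. Alternatives were a height of at least 5 or 10 tags, a p-value under 0.01, position in place of identifier, antisense peaks, region shares, an overlap of 50%, strand, direction, touching peaks, each replicate left out and, chosen after seeing the data, NEAT1 left out. Functions were tested on simulated data. Python 3.11.15, numpy 2.4.6, pandas 2.3.3 and scipy 1.17.1 were used.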

Additional observations from a re-analysis of the deposited data

Results flagged for a closer look

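The MIR17HG peaks without a gene identifier, with 7 tags in replicate 1 and 6.5 tags in replicate 2, lie outside the sense peaks that were counted. They are given here because they lie within the RefSeq gene, on its strand, in a class that was not counted, and overlap each other. Their heights single out nothing, since every listed peak had at least 4 tags. That of replicate 2 is a mean over a wider peak. No control library was analysed here, so their level in the input is unknown.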

How the results depend on the processing

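The minimum height moved the values most. At 10 tags or more the mean number of sense peaks on the 8 RNAs fell from 59.5 to 1.5, the RNAs with a peak in both libraries from 7 to 0, and the noncoding exon share was 100%, from replicate 2 alone, so no overlap could be computed. Without NEAT1 the mean was 31 peaks and the share 70.9%. With edges read as closed, so that touching peaks count, 37.0% of the peaks of replicate 1 had a partner. With either replicate left out, the mean was 54 to 65 peaks, the share 83.3% to 86.2% and the RNAs with a peak 7 to 8. A p-value under 0.01 removed no peak. For single RNAs, 40 of 56 values stayed within 1.5 times the main value. The 16 others include all 8 RNAs at 10 tags, MALAT1 (0 to 7 peaks) and NORAD (1 to 4 peaks) with a replicate left out, SNHG1 and PVT1 at 5 tags (means of 2.5 and 4), PVT1 with antisense peaks (13) and MIR17HG by RefSeq position (2 peaks in place of 1). The causes were not tested. No paired analysis was possible because the input libraries that share the replicate numbers were not analysed here. The unknown depth limits any comparison of heights between libraries.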

Other observations

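Within the RefSeq interval of KCNQ1OT1, the opposite strand, on which KCNQ1 is read, had 6 intron peaks in replicate 1 with 4 or 5 tags and 1 in replicate 2 with 5 tags. No 2 of these overlapped between libraries. On the strand of KCNQ1OT1 the numbers were 4 and 8.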
